A study of Rattus norvegicus with 6 samples.

Results

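The rat major histocompatibility complex is called RT1, and its genes are taken here as every row of the deposited table whose gene name starts with RT1-, which were 31 of 32623 genes. By name, 10 of them are class II genes (RT1-B, RT1-D and RT1-H) and the other 21 are class I genes. All 31 lie on chromosome 20 as the table lists them, where RT1-CE10 starts at position 154074 and the others start between 1337149 and 5374985. The genome build of these positions is not given in the sources used here.

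Total RNA of myocardial tissue from wild-type male rats was sequenced in 6 samples. In 3 of them, named ischemia here, the left anterior descending coronary artery had been ligated after left thoracotomy, with a time of 30 min on the label. The other 3 were sham samples with the same time, for which no ligation is described. Strain and age are not given in the sources used here, and nothing states that replicate numbers mark separate litters or days, so p-values measure the spread between these samples. The question was how transcript levels in ischemic myocardium differ from those in sham myocardium.

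Class I molecules present peptides made inside the cell to CD8 T cells, and nearly all nucleated cells carry them. The classical RT1-A genes do this, while nonclassical class I genes have narrower roles. Class II molecules pair an alpha and a beta chain and present peptides taken up from outside to CD4 T cells, mostly on dendritic cells, macrophages and B cells. RT1-D and RT1-B are the rat counterparts of human DR and DQ, RT1-DM loads peptides onto them in endosomes, and RT1-DO restrains DM. In heart tissue these genes are best known from resident and recruited immune cells and from rejection of grafts.

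Library totals ran from 68529126 to 79591989 counts, and RT1 genes took between 0.0519% and 0.120% of them. The cardiomyocyte markers Myh6, Tnnt2, Tnni3, Actc1, Pln and Ryr2 were present in every library. Sham replicates 1 and 3 stood apart by the summed level of 4 atrial genes (Myl7, Myl4, Sln and Nppa), which was 48341 and 39203 FPKM there, 215 in sham replicate 2 and 1279 to 9610 in the ischemia libraries. FPKM counts fragments relative to gene length and library size, so levels of different genes can be compared per length. Reads of 3 Y-linked genes numbered 4 in sham replicate 1 and 1762 to 4358 elsewhere, although all rats were labelled male. Results are therefore also given without sham replicate 1 and without sham replicates 1 and 3 together. Ischemia replicate 1 stays in those fits. In bulk tissue, fewer cells of a type and less RNA per cell cannot be told apart.

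The start regions of the RT1 genes are shown first, because class I and class II genes are known for different promoter elements. RefSeq windows of the GRCr8 build, 250 bases before to 50 bases after the start, were matched by symbol for 27 of the 31 genes, and the windows of RT1-DMb, RT1-CE7, RT1-M2 and RT1-M4 were not matched. The windows of 6 genes are printed, for the 3 genes that changed (RT1-DMa, RT1-N2 and RT1-M3-1), for the gene of each class with the highest mean FPKM over all 6 libraries (RT1-Da and RT1-A2) and for RT1-Ba, the alpha chain of the other peptide-presenting class II pair. Each is written 5′ to 3′ on the strand of its gene. Positions and strands of the windows are those of GRCr8 and cannot be set beside those of the deposited table, where all 9 class II genes with a window are listed on the opposite strand and 0 of 18 class I genes are. Capitals mark ATTGG (the core of a CCAAT box), CTGATTGG (the core of the class II Y box) and TTTCACTT (an interferon-response type element), on either strand. The 8-letter Y box core holds the 5-letter one. The motifs were chosen with the sequences in view.
RT1-DMa (chr20:4712286-4712585, minus strand): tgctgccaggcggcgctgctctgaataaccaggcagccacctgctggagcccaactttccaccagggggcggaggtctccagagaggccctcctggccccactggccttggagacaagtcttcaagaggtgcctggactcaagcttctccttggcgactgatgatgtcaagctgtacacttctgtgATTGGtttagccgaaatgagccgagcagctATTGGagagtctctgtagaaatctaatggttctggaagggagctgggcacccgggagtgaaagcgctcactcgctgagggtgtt
RT1-Da (chr20:4515165-4515464, plus strand): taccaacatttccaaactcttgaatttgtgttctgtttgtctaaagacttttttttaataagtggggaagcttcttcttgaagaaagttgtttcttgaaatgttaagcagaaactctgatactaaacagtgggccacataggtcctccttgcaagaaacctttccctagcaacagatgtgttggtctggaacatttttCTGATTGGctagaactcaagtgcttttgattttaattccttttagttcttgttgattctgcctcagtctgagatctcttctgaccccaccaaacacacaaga
RT1-Ba (chr20:4576807-4577106, plus strand): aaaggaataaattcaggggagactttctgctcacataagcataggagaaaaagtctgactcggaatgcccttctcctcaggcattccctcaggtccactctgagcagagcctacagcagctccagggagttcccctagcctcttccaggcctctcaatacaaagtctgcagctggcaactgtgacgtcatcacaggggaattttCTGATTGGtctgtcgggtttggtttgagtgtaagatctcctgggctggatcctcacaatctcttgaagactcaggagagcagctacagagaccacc
RT1-N2 (chr20:2646080-2646379, plus strand): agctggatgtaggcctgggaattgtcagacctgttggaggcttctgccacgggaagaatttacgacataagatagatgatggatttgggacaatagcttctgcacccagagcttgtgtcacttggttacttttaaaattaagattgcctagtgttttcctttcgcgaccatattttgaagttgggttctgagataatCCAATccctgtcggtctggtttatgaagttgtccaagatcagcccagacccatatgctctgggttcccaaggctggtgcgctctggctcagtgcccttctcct
RT1-M3-1 (chr20:1333317-1333616, minus strand): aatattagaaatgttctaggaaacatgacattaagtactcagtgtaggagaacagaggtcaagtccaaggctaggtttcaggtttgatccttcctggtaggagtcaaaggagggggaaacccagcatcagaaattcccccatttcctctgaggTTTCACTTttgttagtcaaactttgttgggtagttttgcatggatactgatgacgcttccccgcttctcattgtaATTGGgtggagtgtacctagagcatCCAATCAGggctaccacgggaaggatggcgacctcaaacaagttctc
RT1-A2 (chr20:4872621-4872920, plus strand): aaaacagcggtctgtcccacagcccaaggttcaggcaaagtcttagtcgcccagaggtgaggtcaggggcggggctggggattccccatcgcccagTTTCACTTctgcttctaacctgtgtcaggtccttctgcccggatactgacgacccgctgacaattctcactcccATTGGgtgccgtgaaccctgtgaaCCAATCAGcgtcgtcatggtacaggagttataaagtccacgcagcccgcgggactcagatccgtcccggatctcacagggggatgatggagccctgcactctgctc

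CTGATTGG was found in 7 of the 9 class II windows, always on the strand of the gene, and in 6 of the 18 class I windows, always on the opposite strand. Over all 33469 windows of the same length, 3.50% held it. The class II windows without it were those of RT1-DMa and RT1-DOb, which held the shorter ATTGG, as all 9 class II windows, 13 of 18 class I windows and 37.5% of all windows did. AGCAAC, a core of the class II X box, was found in 6 of 9 class II and 3 of 18 class I windows, with 14.7% of all windows. GATGATG was found in 4 of 9 class II and 3 of 18 class I windows, with 4.11% of all windows. TTTCACTT was found in 7 of 18 class I windows and in 0 of 9 class II windows, with 1.73% of all windows. These matches describe letters in a window and say nothing about binding.

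RT1 class II genes stood higher in the ischemia libraries by their summed level, while class I genes stood lower. The summed FPKM of the 10 class II genes was 45.1, 54.0 and 82.9 in sham replicates 1, 2 and 3 and 68.9, 187 and 119 in ischemia replicates 1, 2 and 3. For the 21 class I genes it was 560, 405 and 301 in the sham libraries and 184, 399 and 153 in the ischemia libraries. Both sums overlapped between the groups. The class II share of all RT1 FPKM did not overlap, at 7.46%, 11.8% and 21.6% in the sham libraries and 27.3%, 31.9% and 43.8% in the ischemia libraries. The mean share was 13.6% ± 7.24 in sham and 34.3% ± 8.499 in ischemia (SD, n = 3 each). No test was made on these sums.

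**Figure D1:**
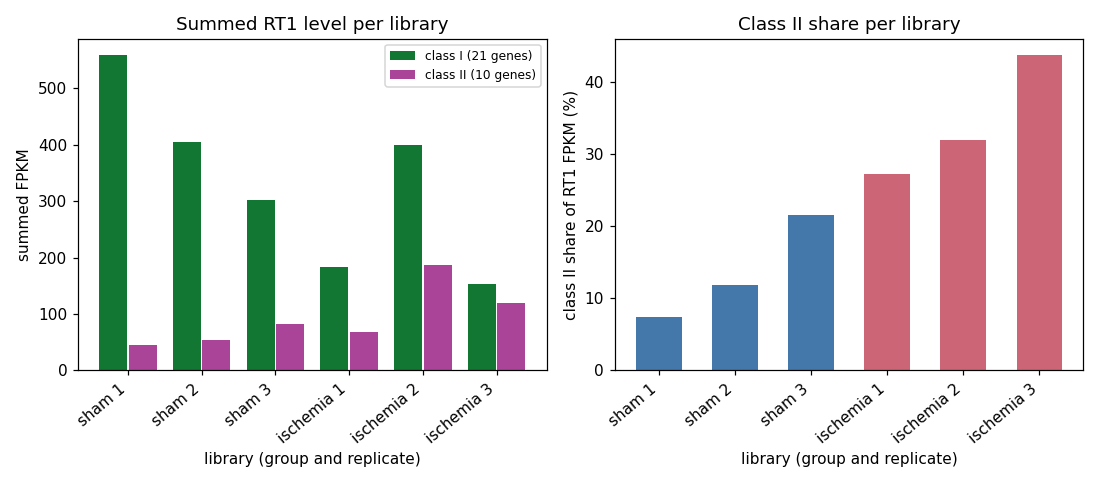
Summed FPKM of the 21 class I and 10 class II genes in each library (left) and the class II share of all RT1 FPKM in percent (right, blue for sham and red for ischemia). The highest sham share was 21.6% and the lowest ischemia share was 27.3%.

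Counts of genes whose mean FPKM reached 0.5 entered the quasi-likelihood test of edgeR, and p-values of all 13964 genes were adjusted together after Benjamini and Hochberg. Of the RT1 genes, 23 passed this filter, 15 of class I and 8 of class II. In the class II group, 1 of 8 rose and 0 fell at an adjusted p under 0.05, beside 5.18% of all tested genes that rose and 1.53% that fell. In the class I group, 2 of 15 fell and 0 rose, and 7 of 15 had an unadjusted p under 0.05, all of them lower, beside 32.4% of all tested genes in either direction. The count of 1 in class II is near that background and is no result about the class. The median log2 fold change, ischemia over sham, was 0.68 over the 8 class II genes and -0.97 over the 15 class I genes, beside -0.0015 over all tested genes. Single estimates were above 0 for 7 of 8 class II genes and below 0 for 14 of 15 class I genes, while 49.9% of all tested genes were above 0. FPKM values of ischemia and sham did not overlap for 2 class II genes, both higher, and for 6 class I genes, all lower. Over all tested genes 23.6% were higher without overlap and 15.0% were lower without overlap. RT1 genes overlap or resemble each other, so their values are not independent of one another.

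**Figure D2:**
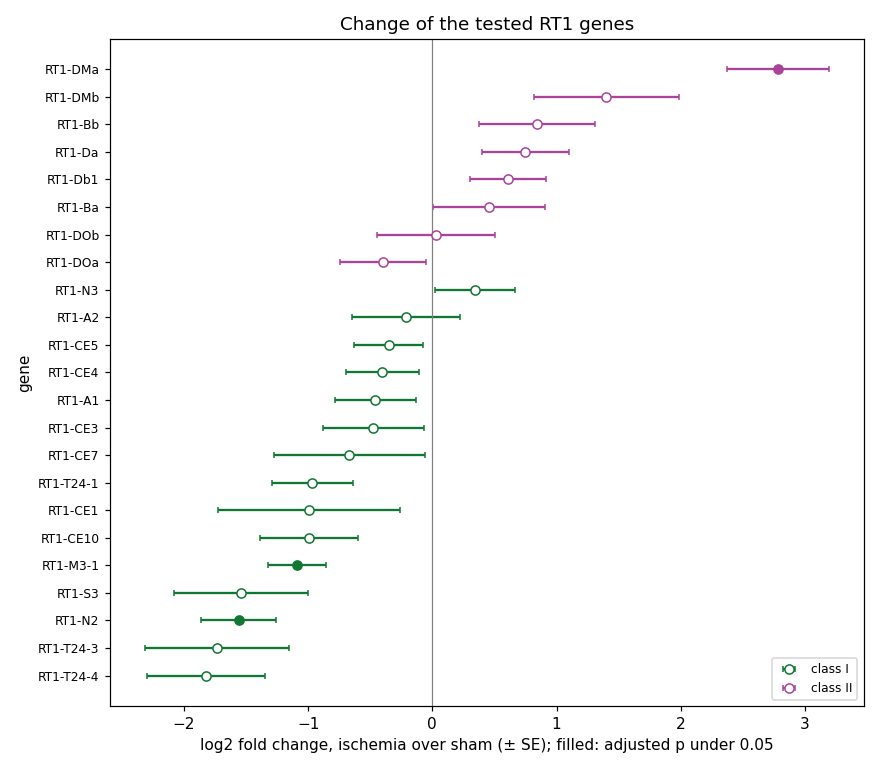
Log2 fold change, ischemia over sham, of the 23 tested RT1 genes with its standard error, class II in purple and class I in green; filled points passed an adjusted p of 0.05 in edgeR. RT1-DMa lies farthest to the right at 2.78 and RT1-T24-4 farthest to the left at -1.82.

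RT1-DM, the pair that loads peptides onto class II molecules, held the largest class II differences. RT1-DMa (ENSRNOG00000047854, chromosome 20, 3935529 to 3938915, plus strand), the alpha chain, stood at 2.79, 1.81 and 3.10 FPKM in sham replicates 1, 2 and 3 and at 9.18, 28.2 and 18.8 FPKM in ischemia replicates 1, 2 and 3. Every ischemia library was above every sham library, and ischemia replicate 2 was the highest. Its mean was 2.57 ± 0.675 FPKM in sham and 18.75 ± 9.53 FPKM in ischemia (SD, n = 3 each), and the log2 fold change was 2.78 ± 0.41 (SE, edgeR adjusted p = 0.0299). Behind these values lay 370, 255 and 392 counts in the sham libraries and 1314, 3675 and 2323 counts in the ischemia libraries. RT1-DMb, its beta chain (ENSRNOG00000049491, chromosome 20, 3945601 to 3952846), had 3.32, 10.4 and 8.69 FPKM in the sham libraries and 10.8, 35.2 and 20.2 FPKM in the ischemia libraries. The groups did not overlap here either, but sham replicate 2 and ischemia replicate 1 lay close together, and the log2 fold change of 1.40 ± 0.59 (SE) did not pass (edgeR adjusted p = 0.155).

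The alpha and beta chains of DM were not at one ratio in all libraries. DMa over DMb was 0.839, 0.174 and 0.356 by FPKM in the sham libraries and 0.853, 0.801 and 0.932 in the ischemia libraries. Sham replicate 1 thus had a ratio like that of the ischemia libraries, although both of its chains were low. Relative to the peptide-presenting genes RT1-Da, RT1-Db1, RT1-Ba and RT1-Bb summed, DM stood at 0.162, 0.300 and 0.171 in sham and at 0.419, 0.522 and 0.499 in ischemia, without overlap. These ratios were chosen after the values had been seen, and no test was made on them.

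RT1-DO, the pair that restrains DM, was far less abundant and overlapped between the groups. RT1-DOa, its alpha chain, had 0.835, 0.758 and 1.28 FPKM in the sham libraries and 0.756, 0.733 and 0.801 FPKM in the ischemia libraries. All 3 ischemia values lay within or just below the sham range (log2 fold change -0.40 ± 0.35 SE, edgeR adjusted p = 0.444). RT1-DOb, the beta chain, had 0.368, 0.356 and 0.877 FPKM in sham and 0.572, 0.770 and 0.386 FPKM in ischemia, with a log2 fold change of 0.03 ± 0.47 (SE, edgeR adjusted p = 0.970). With a mean of 0.555 FPKM it was the tested RT1 gene nearest to the filter, and RT1-M6-1, at 0.460, lay just below it. DM over DO was 5.08, 10.9 and 5.46 in the sham libraries and 15.0, 42.2 and 32.9 in the ischemia libraries. This ratio, too, was chosen after the values had been seen and was not tested.

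RT1-Da and RT1-Db1, the chains of the DR counterpart, made up the most abundant class II pair. RT1-Da (ENSRNOG00000032844, chromosome 20, 4127644 to 4132616) had 20.8, 20.95 and 34.0 FPKM in sham and 27.1, 69.4 and 39.7 FPKM in ischemia. Sham replicate 3 was above ischemia replicate 1, so the groups overlapped, and the log2 fold change of 0.75 ± 0.35 (SE) did not pass (edgeR adjusted p = 0.189). RT1-Db1 had 6.65, 6.36 and 11.1 FPKM in the sham libraries and 8.58, 17.9 and 12.7 FPKM in the ischemia libraries (log2 fold change 0.61 ± 0.31 SE, edgeR adjusted p = 0.213). As for RT1-Da, ischemia replicate 2 was the highest library and sham replicate 3 lay above ischemia replicate 1. Da over Db1 stayed between 3.05 and 3.88 in all 6 libraries.

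RT1-Ba and RT1-Bb form the DQ counterpart. RT1-Ba had 8.88, 11.3 and 20.8 FPKM in sham and 9.88, 28.2 and 21.6 FPKM in ischemia, with overlapping groups (log2 fold change 0.46 ± 0.45 SE, edgeR adjusted p = 0.501). RT1-Bb had 1.39, 1.99 and 3.10 FPKM in sham and 1.995, 6.18 and 4.31 FPKM in ischemia (log2 fold change 0.84 ± 0.46 SE, edgeR adjusted p = 0.246). Among the sham libraries, replicate 3 was the highest for RT1-Da, RT1-Db1, RT1-Ba and RT1-Bb alike. Ba over Bb was 5.68 to 6.69 in sham and 4.56 to 5.01 in ischemia, a ratio that was looked at after the values were known and was not tested.

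The last class II genes were almost silent and were not tested. RT1-Ha, the alpha chain of the DP counterpart, had 8, 20 and 0 counts in the sham libraries and 0, 33 and 18 counts in the ischemia libraries. RT1-Db2, a further DR-type beta gene, had 0, 3 and 0 counts in sham and 4, 7 and 0 counts in ischemia, and it overlaps a row named AABR07072809 on the same strand. A count of 3, the limit of detection chosen here, corresponds to 0.0377 to 0.0438 CPM, a count relative to its library total, in these libraries. Counts and limits cover counting error alone.

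**Figure D3:**
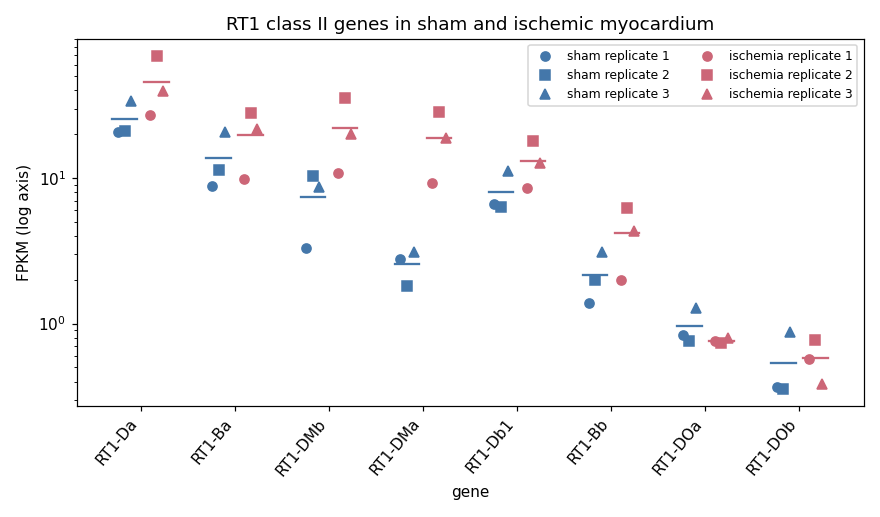
FPKM of the 8 tested class II genes in each library on a log axis, blue for sham and red for ischemia, with a symbol for each replicate and a line at the group mean. RT1-DMa and RT1-DMb have no ischemia value below a sham value, and ischemia replicate 2 is the highest library for 6 of the 8 genes.

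The 2 class I genes that fell were both nonclassical. RT1-N2 (ENSRNOG00000029386, chromosome 20, 3146856 to 3150421, plus strand) had 6.46, 9.96 and 8.65 FPKM in sham and 3.59, 2.94 and 2.69 FPKM in ischemia. The groups did not overlap, with means of 8.36 ± 1.77 and 3.07 ± 0.468 FPKM (SD, n = 3 each) and a log2 fold change of -1.56 ± 0.30 (SE, edgeR adjusted p = 0.0418). RT1-M3-1 (ENSRNOG00000000763, chromosome 20, 1814661 to 1818800, minus strand), whose family presents peptides that start with formyl-methionine, had 6.74, 4.98 and 7.28 FPKM in sham and 3.47, 3.63 and 2.33 FPKM in ischemia. Its means were 6.34 ± 1.20 and 3.14 ± 0.710 FPKM (SD, n = 3 each), and its log2 fold change was -1.09 ± 0.24 (SE, edgeR adjusted p = 0.0485). Both p-values lay close to the threshold of 0.05, and RT1-M3-1 did not pass with total-count scaling (edgeR adjusted p = 0.0913) or with limma (adjusted p = 0.0712 to 0.0748). Without the filter neither gene passed (edgeR adjusted p = 0.0523 for RT1-N2 and 0.0646 for RT1-M3-1). Sham replicate 2, which was low in the atrial genes, had the highest RT1-N2 value and the lowest sham value of RT1-M3-1.

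RT1-N3, close to RT1-N2 in name and position with RT1-S2 listed between them, overlapped between the groups. It had 9.43, 9.92 and 8.67 FPKM in sham and 8.29, 19.4 and 10.9996 FPKM in ischemia, and it was the single tested class I gene with an estimate above 0 (log2 fold change 0.34 ± 0.32 SE, edgeR adjusted p = 0.483). That sign was carried by ischemia replicate 2, without which the estimate was -0.01. N2 over N3 was 0.685, 1.005 and 0.998 in the sham libraries and 0.433, 0.151 and 0.244 in the ischemia libraries, by FPKM and without a test. This ratio was chosen after the values had been seen.

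The RT1-T24 genes and RT1-S3, further nonclassical class I genes, also had low values in ischemia. RT1-T24-4 (chromosome 20, 3189473 to 3197457) had 131, 66.4 and 39.8 FPKM in sham and 19.6, 35.1 and 17.2 FPKM in ischemia, without overlap, and a log2 fold change of -1.82 ± 0.48 (SE, edgeR adjusted p = 0.0655). RT1-T24-3 had 59.8, 64.7 and 34.7 FPKM in sham and 11.1, 34.6 and 8.06 FPKM in ischemia, where sham replicate 3 and ischemia replicate 2 nearly met (log2 fold change -1.74 ± 0.58 SE, edgeR adjusted p = 0.106). RT1-T24-1 had 5.99, 9.81 and 8.02 FPKM in sham and 4.47, 4.10 and 4.60 FPKM in ischemia, again without overlap (log2 fold change -0.97 ± 0.33 SE, edgeR adjusted p = 0.107). RT1-S3 had 131, 74.9 and 53.5 FPKM in sham and 20.7, 59.8 and 16.95 FPKM in ischemia, so that ischemia replicate 2 was above sham replicate 3 (log2 fold change -1.54 ± 0.54 SE, edgeR adjusted p = 0.115). Without ischemia replicate 2 its estimate was -2.24 (edgeR adjusted p = 0.0534). None of these passed the test in edgeR, while DESeq2, which called more genes in all, gave adjusted p-values of 0.00167 for RT1-T24-4, 0.0145 for RT1-T24-3, 0.0290 for RT1-T24-1 and 0.0216 for RT1-S3. The sixth class I gene without overlap was RT1-CE10, named here after its values were seen, with 2.92 to 6.78 FPKM in sham and 1.59 to 2.71 FPKM in ischemia (log2 fold change -0.99 ± 0.39 SE, edgeR adjusted p = 0.141). RT1-S3 and the RT1-T24 genes together took 58.6%, 53.3% and 45.2% of class I FPKM in the sham libraries and 30.4%, 33.5% and 30.7% in the ischemia libraries. These genes were put together after their low values had been seen, so the lower share restates those values, and no test was made on it.

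The classical class I genes overlapped between the groups. RT1-A2 (ENSRNOG00000030712, chromosome 20, 5374985 to 5378539), the RT1 gene of highest mean FPKM over all 6 libraries, had 87.9, 82.0 and 63.9 FPKM in sham and 57.4, 128 and 37.1 FPKM in ischemia. In sham alone, the means of RT1-S3 (86.6 FPKM) and RT1-T24-4 (79.0 FPKM) were above that of RT1-A2 (77.9 FPKM), by less than the spread between sham libraries. For RT1-A2, ischemia held both the highest and the lowest value, and the log2 fold change was -0.21 ± 0.43 (SE, edgeR adjusted p = 0.752). RT1-A1 had 19.4, 14.3 and 11.4 FPKM in sham and 9.84, 17.6 and 8.16 FPKM in ischemia (log2 fold change -0.46 ± 0.32 SE, edgeR adjusted p = 0.352). As listed, RT1-A2 lies inside the span of RT1-A1, so reads may be shared or lost between them.

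The RT1-CE genes, further class I genes, also overlapped between the groups apart from RT1-CE10. RT1-CE5 had 49.3, 35.1 and 35.2 FPKM in sham and 26.2, 49.5 and 25.2 FPKM in ischemia (log2 fold change -0.35 ± 0.28 SE, edgeR adjusted p = 0.400). RT1-CE4 had 12.6, 9.45 and 11.3 FPKM in sham and 6.76, 14.1 and 6.33 FPKM in ischemia (log2 fold change -0.40 ± 0.29 SE, edgeR adjusted p = 0.367). In both, ischemia replicates 1 and 3 were low while ischemia replicate 2 was as high as sham. RT1-CE7 had 15.5, 13.5 and 4.25 FPKM in sham and 5.77, 13.4 and 4.27 FPKM in ischemia (log2 fold change -0.67 ± 0.61 SE, edgeR adjusted p = 0.466), and RT1-CE3 had 7.61, 4.66 and 7.48 FPKM in sham and 2.53, 7.82 and 4.72 FPKM in ischemia (log2 fold change -0.48 ± 0.41 SE, edgeR adjusted p = 0.436). The listed spans of RT1-CE1, RT1-CE4 and RT1-CE7 enclose other genes, among them Tnf, Ltb and Hspa1b, so their values are uncertain. RT1-CE5 overlaps each of these spans on the same strand, and RT1-CE3 lies inside those of RT1-CE1 and RT1-CE4. Reads of RT1-CE5 and RT1-CE3 may therefore be shared or lost as well.

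**Figure D4:**
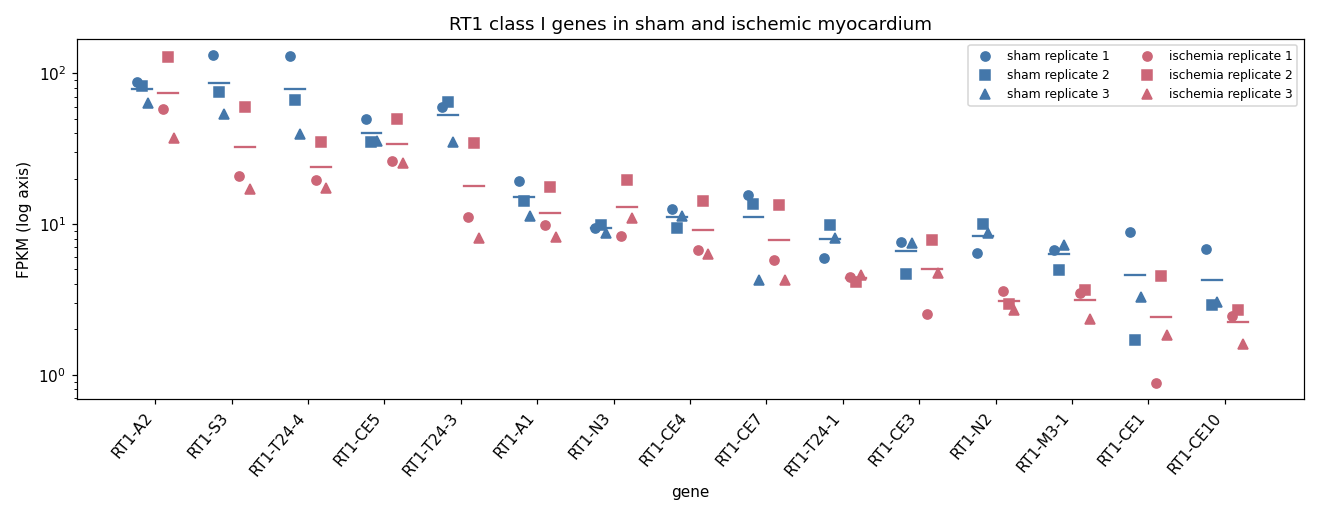
FPKM of the 15 tested class I genes in each library on a log axis, blue for sham and red for ischemia, with a symbol for each replicate and a line at the group mean. RT1-N2, RT1-M3-1, RT1-T24-4, RT1-T24-3, RT1-T24-1 and RT1-CE10 have no ischemia value above a sham value, while RT1-A2 spans from 37.1 to 128 FPKM within ischemia.

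Of the 31 RT1 genes, 7 had 0 counts in some library. RT1-M5 was at 0 in all 6 libraries. Besides RT1-Ha and RT1-Db2 these were RT1-M6-2 (0 to 29 counts), RT1-S2 (0 to 12), RT1-M2 (0 to 4) and RT1-M4 (0 to 4). None of the 7 reached 100 counts in another library, so no gene switched between absent and well covered. RT1-M6-1, with 48 to 160 counts, was the other gene below the filter. Copies that share reads can still be split unevenly. RT1-T24-1 overlaps a row named AABR07044364 on the same strand, which the table describes as an RT1 class gene, and this row had 1538, 1310 and 692 counts in sham and 400, 797 and 168 in ischemia. RT1-S3, RT1-T24-4 and RT1-N3 overlap a row on the opposite strand, AABR07044362, with 320 to 832 counts. The library kit keeps strand, but the setting used for counting is not given in the sources used here.

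The calls on single RT1 genes depended on which libraries entered. Leaving out ischemia replicate 1 kept RT1-DMa, RT1-N2 and RT1-M3-1 (edgeR adjusted p = 0.0123, 0.0309 and 0.0379), and leaving out ischemia replicate 2 kept RT1-DMa (adjusted p = 0.0373) but neither of the others (0.0734 and 0.0709). Without ischemia replicate 2, RT1-T24-3 passed instead, at a log2 fold change of -2.55 (edgeR adjusted p = 0.0415). Without sham replicate 1, sham replicate 2, sham replicate 3 or ischemia replicate 3, edgeR called 0 genes of the whole table at an adjusted p under 0.05, with 3020 to 3809 genes at an unadjusted p under 0.05. Directions were kept by the 3 genes, with a log2 fold change of 2.44 to 3.09 for RT1-DMa, -1.75 to -1.28 for RT1-N2 and -1.20 to -0.95 for RT1-M3-1 over the 6 fits. Without both sham libraries of high atrial level, the estimates were 3.05, -1.996 and -0.97, each with an edgeR adjusted p of 0.394.

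Genes that supply, load and process peptides, and regulators of RT1 transcription, were described from lists of 37 genes, of which 35 were tested. Marchf1, with 0 counts in sham, reached the filter through its ischemia values and so had to differ, and it is left out of the counts that follow. Of the other 34 genes 2 rose and 0 fell, beside 5.18% and 1.53% of all tested genes, and the median log2 fold change was 0.24. In the class II processing list, 1 of 6 rose and the median log2 fold change was 1.23. Ifi30, a thiol reductase that unfolds antigens in endosomes, had 39.4, 43.3 and 47.1 FPKM in sham and 96.6, 168 and 110 FPKM in ischemia, well apart (log2 fold change 1.42 ± 0.24 SE, edgeR adjusted p = 0.0352). Marchf1, a ubiquitin ligase that removes class II molecules from the cell surface, had 0 counts in all 3 sham libraries and 56, 212 and 31 counts in ischemia. Against a limit of 3 counts in each sham library it was at least 30.2-fold higher, and at least 13.8-fold higher without ischemia replicate 2. Cd74, the invariant chain that escorts new class II molecules, had 202, 424 and 309 FPKM in sham and 294, 479 and 333 FPKM in ischemia. Its log2 fold change was 0.09 ± 0.38 (SE, edgeR adjusted p = 0.881), and its sign turned without sham replicate 1 (-0.18) or without ischemia replicate 2 (-0.08).

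In the list for class I loading and peptide supply, 0 of 14 genes passed, with a median log2 fold change of 0.02 and a range of -0.59 to 1.02. B2m, the light chain shared by class I molecules, had 730, 480 and 663 FPKM in sham and 423, 808 and 393 FPKM in ischemia (log2 fold change -0.30 ± 0.30 SE, edgeR adjusted p = 0.512). Like RT1-A2, it held its highest and lowest values within ischemia. Tap1, a subunit of the peptide transporter, had 9.32, 8.07 and 6.19 FPKM in sham and 5.79, 12.0 and 5.59 FPKM in ischemia (log2 fold change -0.14 ± 0.33 SE, edgeR adjusted p = 0.791). Psmb8, an immunoproteasome subunit, had 11.6, 11.8 and 14.5 FPKM in sham and 13.02, 23.7 and 18.0 FPKM in ischemia (log2 fold change 0.44 ± 0.24 SE, edgeR adjusted p = 0.241).

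Of the 14 tested regulators, 1 rose and 0 fell, which is near the 5.18% and 1.53% over all tested genes, and the median log2 fold change was 0.14. Ifngr2, a chain of the interferon gamma receptor, had 12.6, 12.9 and 13.01 FPKM in sham and 25.6, 40.8 and 28.6 FPKM in ischemia, with little spread in sham (log2 fold change 1.19 ± 0.21 SE, edgeR adjusted p = 0.0361). Ciita, the coactivator that class II transcription needs, had 0.457, 0.632 and 0.934 FPKM in sham and 0.912, 2.27 and 1.31 FPKM in ischemia (log2 fold change 1.04 ± 0.42 SE, edgeR adjusted p = 0.148). Sham replicate 3 and ischemia replicate 1 overlapped, as they did for RT1-Da. Nlrc5, its class I counterpart, had 1.49, 1.44 and 0.877 FPKM in sham and 0.774, 1.34 and 0.572 FPKM in ischemia (log2 fold change -0.64 ± 0.40 SE, edgeR adjusted p = 0.303). Ifng itself was below the filter and at 0 counts in sham.

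**Figure D5:**
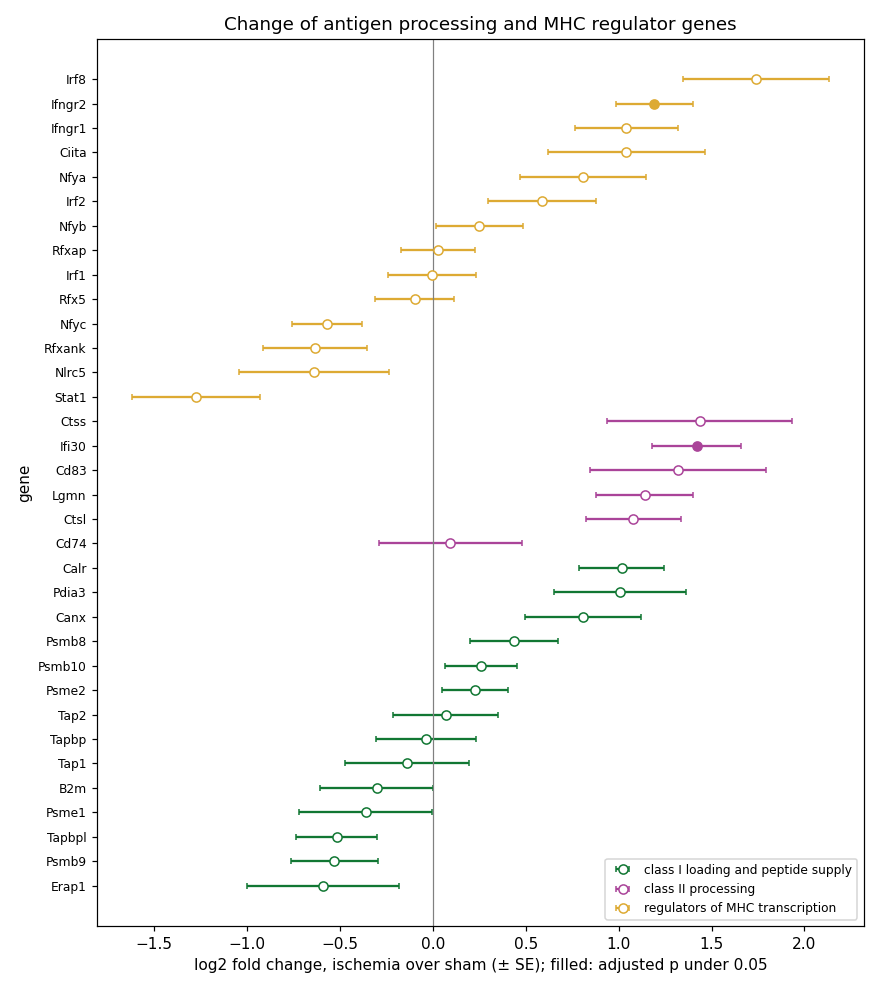
Log2 fold change, ischemia over sham, with its standard error for 34 of the 35 tested list genes (Marchf1, at 0 counts in sham, is left out), grouped as class I loading and peptide supply (green), class II processing (purple) and regulators (yellow). Filled points passed an adjusted p of 0.05 in edgeR, which were Ifi30 and Ifngr2.

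Markers of cells that carry class II molecules were read beside these results, and their part in them was not tested. Their counts stand beside 5.18% of all tested genes that rose and 1.53% that fell. Summed dendritic cell markers were 5.66 to 7.25 FPKM in sham and 8.94 to 32.6 FPKM in ischemia, where 1 of 5 tested genes rose, Itgax, while Clec9a, Ccr7, Flt3 and Zbtb46 had log2 fold changes of 1.30, 2.18, -0.01 and -0.02 and of the untested genes Cd209 had 0 counts in 5 of 6 libraries and Xcr1 averaged 0.206 FPKM in sham and 0.208 FPKM in ischemia. Summed macrophage markers overlapped, at 141 to 201 FPKM in sham and 178 to 290 FPKM in ischemia, with 2 of 7 higher (Cd68 and Cd163) and 0 lower by the adjusted p. Adgre1, C1qa and C1qb had estimates below 0 in that list, with log2 fold changes of -1.13, -0.66 and -0.03 (edgeR adjusted p = 0.135, 0.0504 and 0.893). C1qa was lower in every ischemia library than in any sham library. B cell markers summed to 1.13 to 2.66 FPKM in sham and 2.92 to 6.47 FPKM in ischemia, with 0 of 2 tested genes past the threshold. Neutrophil and monocyte markers summed to 8.16 to 19.2 FPKM in sham and 470 to 3539 FPKM in ischemia, 5 of 6 rose, and Retnlg was at 0 in sham. Of these, 3 (Csf3r, Cxcr2 and Retnlg) averaged under 0.5 FPKM in sham and reached the filter through ischemia, and 2 of the other 3 rose. Ischemia replicate 2 was the highest library for these lists and for most class II genes. T and NK cell markers summed to 22.7 to 31.0 FPKM in sham and 31.6 to 41.5 FPKM in ischemia, where Cd8a rose and Cd4 fell among 7. Endothelial markers, whose cells also carry class I molecules, overlapped at 135 to 140 FPKM in sham and 125 to 151 FPKM in ischemia with 0 of 4 past the threshold. Fibroblast markers summed to 331 to 1125 FPKM in sham and 172 to 414 FPKM in ischemia with 0 of 4 past the threshold. The cardiomyocyte markers summed to 23778 to 30313 FPKM in sham and 8139 to 16050 FPKM in ischemia with 0 of 6 past the threshold. In both lists all estimates were below 0. Myh6, Actc1 and Ryr2 had log2 fold changes of -2.38, -1.70 and -1.51 (edgeR adjusted p = 0.0510, 0.0536 and 0.0696). Lum had -2.70 and Col1a1 -2.22 (edgeR adjusted p = 0.0510 and 0.116). These genes were lower without overlap, as were 15.0% of all tested genes, while Tnnt2, Tnni3, Pln, Pdgfra and Dcn overlapped.

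Genes between the RT1 genes on chromosome 20 were used as neighbours. From 154074 to 5418019, 119 other genes were tested, of which 7 rose and 1 fell (LOC103689965, named after its value was seen, log2 fold change -3.81 ± 0.80 SE, edgeR adjusted p = 0.0473), beside 5.18% and 1.53% over all genes, and their median log2 fold change was 0.05. Within the class II span, 3875706 to 4132616, 6 other genes were tested (Tap1, Tap2, Psmb8, Psmb9 and rows named AC098547 and AABR07072809), and 0 passed, with log2 fold changes from -0.53 to 0.58. With 6 genes, a count of 0 is near the shares over all tested genes and is no result about the region around RT1-DMa.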

How the data were processed

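Total RNA libraries from 3 sham and 3 ischemia samples had been made with a stranded kit, and the submitters' processing notes name STAR and HTSeq without versions or settings. The deposited counts are raw whole numbers of reads per gene. The FPKM values deposited by the authors were scaled by gene length and library size, with genes without reads written as 0.0001, which was set to 0 here. Annotation columns of the table served only for names, descriptions and positions.

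Counts were tested with edgeR 4.0.16 (limma 3.58.1, R 4.3.3): TMM scaling, a minimum mean FPKM of 0.5, quasi-likelihood test without covariates, two-sided, Benjamini-Hochberg adjustment over all 13964 tested genes and a threshold of 0.05. Standard errors were derived from the F statistic. The alternatives were DESeq2 1.42.0, median-ratio and total-count scaling, no minimum or a minimum mean FPKM of 5, limma on log2(FPKM + 0.1, 1 or 0.01), rows of one symbol summed, a replicate block and leaving out each library. The edgeR and limma steps were tested on simulated data. Totals of 68529126 to 79591989 counts set the precision, and 3 counts served as the limit of detection.

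The RT1 genes, the gene lists and the markers were chosen with earlier results of these data known. Named with values were all class II genes, the 12 class I genes of highest mean FPKM, every RT1 gene past the threshold and, of the pathway lists, genes past the threshold plus Cd74, B2m, Ciita, Nlrc5, Tap1 and Psmb8. Single marker genes, RT1-CE10, RT1-CE1 and neighbouring genes were named after their values were seen. Same-numbered sham and ischemia samples were from different animals. Protein sequences were not used here. Of the neutrophil and monocyte markers, 1 gene is not reported here.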

Additional observations from a re-analysis of the deposited data

How the results depend on the processing

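The summed FPKM kept its direction under every alternative run: leaving out 1 library at a time gave a log2 ratio of -1.33 to -0.53 for class I, 0.63 to 1.33 for class II and 1.37 to 2.34 for the class II to class I ratio, and scaling or filter choices stayed within the spread between replicates. Counts of calls moved more. Class I genes that fell numbered 6 with DESeq2, 1 with total-count scaling and with limma at each pseudocount, where RT1-M3-1 was lost, 1 with a mean FPKM of at least 5, where RT1-M3-1 was not tested, 0 without a filter, and 0 to 2 leaving out single libraries. Class II genes that rose numbered 0 to 1 leaving out single libraries. List genes that rose, Marchf1 included, numbered 3 in the main test, 11 with DESeq2 (2 fell), 5 with a mean FPKM of at least 5, where Marchf1 was not tested, and 5 with limma on log2(FPKM + 0.1), and 0 to 7 leaving out single libraries. Over all genes, DESeq2 called 2071 higher and 1742 lower, total-count scaling 509 and 83, no filter 493 and 93, and leaving out single libraries 0 to 1490 higher and 0 to 1115 lower. Without sham replicates 1 and 3 together, chosen after the data were seen and with the lone sham library assumed to vary like the ischemia libraries, all of these counts were 0, with 1707 genes at an unadjusted p under 0.05. The cause of these shifts was not tested.

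The replicate block gave 0 calls in every one of these counts, with 3349 genes at an unadjusted p under 0.05. Same-numbered samples did not deviate together (correlations -0.056, -0.094 and -0.196). Correlations of differently numbered samples were not set beside these, so the values cannot settle whether the numbers pair the samples.

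Signs turned for some genes. Leaving out single libraries gave -0.78 to 0.085 for RT1-A2, -0.0061 to 0.56 for RT1-N3, -0.19 to 0.48 for RT1-DOb, -0.18 to 0.53 for Cd74 and -0.52 to 0.016 for Tap1. Without sham replicates 1 and 3 together RT1-CE1 stood at 0.17, against -0.99 with all libraries, -0.18 without sham replicate 1 and -1.72 without ischemia replicate 2, and Cd74 at -0.52. No RT1 gene combined 0 counts in one library with 100 or more in a different one, so that alternative changed nothing. Levels under 3 counts were below the limit of detection chosen here.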

Other observations

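Among the 119 tested neighbours of the RT1 genes, those that rose included Lst1, a transcript of leukocytes, with 39, 69 and 91 counts in sham and 502, 1874 and 593 counts in ischemia (log2 fold change 3.78 ± 0.65 SE, edgeR adjusted p = 0.0361). Ier3, an immediate early gene, had 1580, 1656 and 1377 counts in sham and 5705, 17500 and 5428 counts in ischemia (log2 fold change 2.52 ± 0.48 SE, edgeR adjusted p = 0.0404). Clic1, a chloride channel protein, had 5541, 5396 and 5969 counts in sham and 14689, 34538 and 20333 counts in ischemia (log2 fold change 1.96 ± 0.33 SE, edgeR adjusted p = 0.0361). In all 3, every ischemia library was above every sham library and ischemia replicate 2 was the highest. These genes were named after their values were seen.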
